A study of Mus musculus with 10 samples.

Results

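Immediate early genes were followed in single pituitary cells of mice through 10 of them: Fos, Fosb, Jun, Junb, Jund, Egr1, Ier2, Atf3, Nr4a1 and Nr4a2. They were taken by name, of 44288 genes listed in the 10 count tables together. Of these, 9 were listed in every table and Jund in the tables of the 10X Genomics libraries, so that summed levels below hold the 9 genes that all tables share. Jund in the Drop-seq libraries was not analysed here.

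Single cells of the mouse pituitary were measured in 10 libraries, with 1 UMI (unique molecular identifier) standing for 1 counted mRNA molecule. The paper names CD1 as the strain of its purchased mice and gives no strain for the mt/hGRF mice. The wild-type (WT) mice of 8 weeks gave 1 female and 1 male library on the 10X Genomics platform, and 2 female and 2 male libraries by Drop-seq. The labels leave their physiological state open, and the study describes mice of this age as sexually naïve. By Drop-seq, 1 further library came from 8-week virgin female mice with the mt/hGRF transgene, 1 from a virgin female of 13 weeks and 2 from lactating females of 13 weeks. In mt/hGRF mice the metallothionein promoter, which is active in many tissues, drives human growth hormone-releasing factor, the hypothalamic peptide that stimulates somatotropes, so the transgene is not limited to the pituitary or to its hypothalamic input. Per the study, each 8-week WT Drop-seq library, the mt/hGRF library and the second lactating library pooled more than 1 mouse. The lactating libraries came from separate experiments. All glands were dispersed without enzymes, in a dissociation buffer and through a cell strainer. The p-values measure the spread between libraries, most of them pools, which may be partly technical.

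Immediate early genes are transcribed within minutes of a stimulus from factors that a cell already holds, such as phosphorylated CREB and the serum response factor, and their mRNAs are short-lived. Fos, Fosb, Jun, Junb and Jund encode subunits of the dimeric AP-1 transcription factor, Egr1 a zinc finger transcription factor, Ier2 a nuclear protein, Atf3 a stress-inducible bZIP factor, and Nr4a1 (Nur77) and Nr4a2 (Nurr1) orphan nuclear receptors. In the pituitary they follow hypothalamic releasing hormones through cAMP and calcium, and Nr4a receptors act at the promoter of Pomc in cells of the corticotrope and melanotrope lineage. The dispersal of a tissue into single cells is also known to induce them.

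The RefSeq promoters of 8 of the 10 genes were at hand (assembly GRCm38.p6), and the 250 bases before the start of the genes whose levels the results turn on are shown because they differ in a letter pattern through which cAMP-responsive factors are known to bind. Capitals mark TGACG, the core of the cAMP response element, on either strand. The sequences are, 5′ to 3′ on the strand of the gene, those of Fos (chr12:85473640-85473889, plus strand), Junb (chr8:84978749-84978998, minus strand), Nr4a1 (chr15:101266596-101266845, plus strand), Nr4a2 (chr2:57124004-57124253, minus strand) and Jun (chr4:95052223-95052472, minus strand). The window of Nr4a1 lies before a RefSeq start inside the longer GENCODE model of the gene.
Fos: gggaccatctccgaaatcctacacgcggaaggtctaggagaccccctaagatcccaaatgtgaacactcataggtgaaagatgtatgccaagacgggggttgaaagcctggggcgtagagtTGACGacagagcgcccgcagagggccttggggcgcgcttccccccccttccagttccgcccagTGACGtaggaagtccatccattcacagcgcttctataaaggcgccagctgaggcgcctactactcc
Junb: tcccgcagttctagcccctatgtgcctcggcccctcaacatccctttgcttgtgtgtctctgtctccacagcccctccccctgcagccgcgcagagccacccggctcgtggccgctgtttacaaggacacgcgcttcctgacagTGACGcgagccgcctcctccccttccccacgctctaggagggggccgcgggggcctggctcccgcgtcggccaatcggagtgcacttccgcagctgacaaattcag
Nr4a1: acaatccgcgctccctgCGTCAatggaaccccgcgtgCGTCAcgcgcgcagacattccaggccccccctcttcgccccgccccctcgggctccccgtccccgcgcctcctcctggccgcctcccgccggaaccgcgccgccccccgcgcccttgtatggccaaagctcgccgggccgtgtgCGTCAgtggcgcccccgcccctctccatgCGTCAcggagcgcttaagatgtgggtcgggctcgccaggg
Nr4a2: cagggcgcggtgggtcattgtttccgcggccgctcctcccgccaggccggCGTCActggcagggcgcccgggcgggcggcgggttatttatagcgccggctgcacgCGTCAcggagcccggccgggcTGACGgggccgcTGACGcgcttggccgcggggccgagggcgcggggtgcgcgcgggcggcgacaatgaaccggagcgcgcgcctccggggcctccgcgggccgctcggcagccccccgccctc
Jun: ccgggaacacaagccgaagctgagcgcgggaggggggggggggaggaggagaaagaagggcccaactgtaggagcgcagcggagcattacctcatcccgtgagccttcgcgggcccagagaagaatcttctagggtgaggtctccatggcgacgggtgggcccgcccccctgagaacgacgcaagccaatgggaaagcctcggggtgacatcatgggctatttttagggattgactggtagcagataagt
TGACG on either strand was found in 6 of the 8 promoters, and in 17.8% of 32851 mouse promoters of the same length. Nr4a1 and Nr4a2 held 4 copies each, a number that 0.137% of all promoters reached, and Fos held 2, which 3.9% reached. Junb, Fosb and Atf3 held 1 each, and Jun and Jund none in these windows. The window of Jund (chr8:70697489-70697738) lies before a RefSeq start upstream of its GENCODE model, and that of Atf3 (chr1:191183334-191183583) inside its longer model. The full element TGACGTCA, of which TGACG is a piece, was in none of the 8 and in 1.55% of all promoters, and the AP-1 site TGACTCA was in none of the 8 and in 4.46%. GCGGGGGCG, the site that EGR factors bind, was found in Fosb and Nr4a1 and in 2.57% of all promoters. A match of letters is a description of the sequence, and no binding was measured.

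In the GENCODE vM21 models Fos lies at chr12:85473890-85477273, Jun at chr4:95049034-95052222, Junb at chr8:84974484-84978718, Nr4a1 at chr15:101254269-101274795 and Nr4a2 at chr2:57106830-57124003. Fosb lies at chr7:19302696-19310051, Jund at chr8:70698949-70700616, Ier2 at chr8:84661331-84662852 and Atf3 at chr1:191170296-191218039, all in the build mm10. The models of Jun, Junb, Jund and Atf3 overlap those of Junos, Prdx2, Gm11175 and Gm24748 on the opposite strand. Drop-seq counting kept reads on the strand of the gene, and the setting for the 10X libraries is not given in the sources used here.

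After filters on UMIs, genes and mitochondrial share, 978 to 5256 cells per library were kept, 23432 in all, with 960289 to 5080590 UMIs per library and a median of 534 to 1246 UMIs per cell. Marker genes, none of them a member, assigned 10221 cells (43.62%) to a class, which is called by the hormone lineage its markers stand for: 2337 Som-like (somatotrope), 2174 Lac-like (lactotrope), 562 Gona-like (gonadotrope), 1630 Mel-like (melanotrope), 997 Mult-like (several hormones), 325 Sox2+-like (stem cell), 218 stromal-like, 570 MacPh-like (macrophage) and 460 antigen-presenting cells, beside 313 red blood cells. Pomc, the melanotrope hormone precursor, stood at 1596 UMIs per 10000 in Mel-like cells against 33.5 in MacPh-like cells. The MacPh-like class was led by genes that include Ctsd, P2ry12 and Siglech, known from microglia as well. A Mki67+ gate was led by ribosomal pseudogenes and S100a8, was left unnamed and entered no test. Beside the levels over all kept cells, its sums entered only the search for genes most like the members. No pair of libraries shared more than 6 cell barcodes. The mt/hGRF library lost 38.7% of its cells at the mitochondrial limit, and the others lost 6.95% to 20.4%.

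Over all kept cells, 3 libraries stood apart in the members. The 9 genes summed to 24.5 and 24.4 UMIs per 10000 UMIs in the female and male WT Drop-seq replicates 2 and to 15.5 in the mt/hGRF library, and to 1.65 to 5.45 in the other 7 libraries. These 3 also stand apart from libraries of their own age and platform, since WT Drop-seq replicates 1 summed to 5.45 (female) and 4.74 (male). Libraries that share a replicate number here share a number in their titles whose meaning was not given, so a day, a run or a batch of mice cannot be told apart.

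Fos was the most abundant member in those 3 libraries. It stood at 8.28 and 8.72 UMIs per 10000 in female and male replicates 2, at 4.19 in mt/hGRF and at 1.70 and 0.700 in female and male replicates 1. In the 10X libraries it stood at 0.258 (female) and 0.691 (male), in the virgin library at 0.185 and in the lactating libraries at 0.111 and 0.230. The lowest of the 3 high libraries thus lay above the highest of the other 7. Egr1 showed the same split, with 2.90, 3.21 and 2.41 in the 3 high libraries and 0.0595 to 0.416 in the others, as did Junb with 3.47, 4.08 and 2.62 against 0.377 to 1.32. Ier2 stood at 0.893, 0.980 and 1.18 against 0.163 to 0.417, and Nr4a1 at 3.65, 2.96 and 1.06 against 0.0555 to 0.389. For Nr4a2, 3.27, 2.65 and 2.11 in the high libraries stood against 0.203 to 1.46, where the second lactating library gave the highest of the others. Fosb stood at 0.447, 0.719 and 0.416 against 0.0295 to 0.312.

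Jun, a subunit with which Fos dimerizes in AP-1, and Atf3 did not follow this order. Over all kept cells Jun was highest in the 10X libraries, at 2.06 (female) and 1.87 (male), stood at 1.44, 1.39, 1.24, 1.01 and 1.35 in the 5 Drop-seq libraries of 8 weeks, and at 0.670, 0.278 and 0.308 in the 3 libraries of 13 weeks. In the 10X libraries 370 of 806 (female) and 549 of 951 (male) Jun UMIs were in cells without a class, and 10 and 21 in Som-like cells. The unnamed Mki67+ gate held 44 (female) and 32 (male) barcodes there, with 525826 and 731345 UMIs of all genes. A few deep barcodes thus weigh on the levels over all kept cells of these libraries. Jun in Som-like cells was at 0.179 and 0.247 there, below the 0.523 of mt/hGRF. Atf3 lay between 0.0555 and 0.360 in all 10 libraries. Jund stood at 0.867 in the female and 0.547 in the male 10X library, a male over female ratio of 0.631 (95% counting interval 0.536 to 0.741). All intervals given here cover counting error only.

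**Figure D1:**
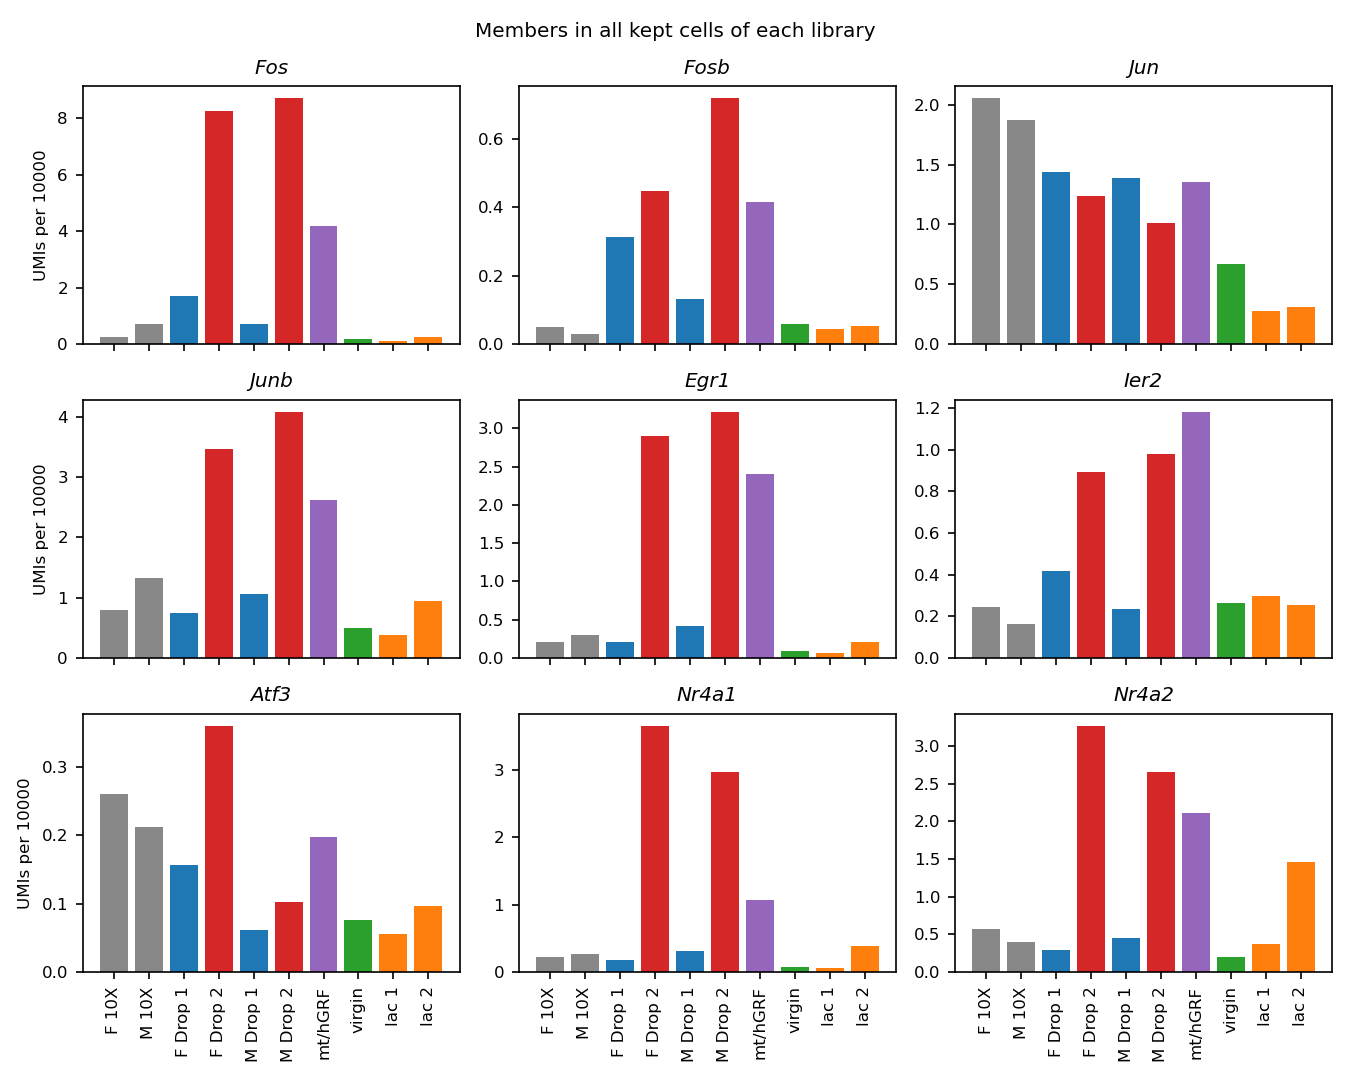
UMIs per 10000 UMIs over all kept cells (vertical axis, a scale of its own for each gene) of the 9 members listed in all tables, for each of the 10 libraries (horizontal axis; F female, M male, Drop 1 and 2 the WT Drop-seq replicates, lac lactating). For Fos, the bars of replicates 2 (8.28 and 8.72) and mt/hGRF (4.19) rise above the other 7, and for Jun and Atf3 they do not.

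The classes were compared by edgeR's quasi-likelihood test on UMI sums per library and class, each class against the mean of the others with the library as a block, with p-values adjusted by Benjamini and Hochberg over 7974 genes. All 9 shared members were tested. Much of the transcriptome differs between cell types, so each count of members stands beside the share of all genes called in the same direction.

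Both Nr4a receptors were higher in melanotrope-like cells than in the mean of the other classes. Nr4a2 stood at 0.313 to 10.6 UMIs per 10000 in Mel-like cells and was highest there among the classes in 9 of 10 libraries. In female and male replicates 2 it reached 9.89 and 10.6, in mt/hGRF 7.48, in the second lactating library 4.72 and in the first 1.39. It was higher in Mel-like cells than in the mean of the other classes by 4.11 ± 0.21 (log2 fold change ± SE, edgeR adjusted p = 2.5e-41) and by 3.37 with both replicates 2 and mt/hGRF left out (adjusted p = 1.5e-29). Nr4a1 was higher by 2.93 ± 0.26 (adjusted p = 7.3e-20), though Mel-like cells held the highest level in 5 of 10 libraries, and in the male replicate 2 Lac-like cells were above them (8.02 against 7.35 UMIs per 10000). Fos followed with 2.18 ± 0.29 (adjusted p = 1.2e-10), Fosb with 2.08 ± 0.37, Atf3 with 1.47 ± 0.44, Egr1 with 1.39 ± 0.27 and Junb with 1.26 ± 0.24. Jun was lower in Mel-like cells by 1.71 on the log2 scale (SE 0.34, adjusted p = 1.2e-05) and was at 0 there in 3 of 10 libraries. In total 7 members were higher and 1 lower in Mel-like cells, where 32.5% of all genes were higher and 13.1% lower, and the median log2 difference was 1.47 over the members and 0.20 over all genes. Without replicates 2 and mt/hGRF, 4 of these calls held, those of Nr4a2, Nr4a1, Fos and Jun, beside 38.8% of genes called in either direction, and Egr1 stood at -0.13.

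In lactotrope-like cells 6 members were higher and none lower, beside 35.2% and 15% of all genes. Nr4a2 was higher by 2.25 ± 0.25 (edgeR adjusted p = 4.1e-14), Nr4a1 by 2.0 ± 0.28 (adjusted p = 8e-10), Fos by 1.19 ± 0.32 (adjusted p = 0.0012), Fosb by 1.13 ± 0.41, Egr1 by 0.93 ± 0.28 and Junb by 0.64 ± 0.26. These calls rested on the 3 high libraries. Without them only Nr4a2 was called in Lac-like cells (0.93, edgeR adjusted p = 0.0091, beside 42% of genes in either direction), and Fos, Junb and Egr1 stood at -0.33, -0.47 and -0.83. Without the male replicate 2 alone, 3 members were called.

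In macrophage-like cells Fos, Fosb, Jun, Junb and Atf3 were higher and Nr4a1 and Nr4a2 lower than in the mean of the other classes. MacPh-like cells held the highest Fos level in 2 of 10 libraries, and Fosb was at 0 there in 5 of 10. In female and male replicates 2, Fos was lower in MacPh-like than in Lac-like cells (ratio 0.220, interval 0.122 to 0.369, and 0.0768, interval 0.0248 to 0.181). Jun stood at 1.38 to 19.1 UMIs per 10000 there, in every library above each endocrine class, and was at 0 in red blood cells of all libraries that held them. Jun was higher in MacPh-like cells by 3.19 ± 0.21 (edgeR adjusted p = 1.1e-31), Atf3 by 3.05 ± 0.44 (adjusted p = 1.2e-09), Fos by 2.67 ± 0.35 (adjusted p = 3.4e-11), Junb by 2.22 ± 0.26 (adjusted p = 7.6e-14), Fosb by 2.10 ± 0.47 and Ier2 by 1.01 ± 0.29. Nr4a1 was lower there by 1.42 on the log2 scale (SE 0.63, adjusted p = 0.045), with no UMI in 6 of 10 libraries and at most 0.460 UMIs per 10000, in the second lactating library (5 UMIs). This difference ranged from -2.23 to -0.63 with 1 library left out, and the call was lost without mt/hGRF (edgeR adjusted p = 1) and without each of 6 other libraries. That of Nr4a2 was lost without the second lactating library, and that of Fosb without the female replicate 1 (0.76). Nr4a2 was lower too (edgeR adjusted p = 0.0024) and had no UMI in MacPh-like cells of 8 of 10 libraries, which allows levels of up to 0.294 to 1.03 UMIs per 10000. That is 6 members higher and 2 lower, beside 26.2% and 30.8% of all genes, with a median of 2.10 over the members and -0.28 over all genes. Without the 3 high libraries Fos was higher by 3.62 (adjusted p = 1e-18) and Jun by 3.14 (adjusted p = 6.1e-28).

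Antigen-presenting cells, led by major histocompatibility class II genes, showed a similar set. Jun was higher by 2.86 ± 0.26 (edgeR adjusted p = 5e-20), Atf3 by 2.89 ± 0.52 (adjusted p = 1e-06), Fos by 1.52 ± 0.44, Ier2 by 1.25 ± 0.32 and Junb by 1.17 ± 0.33, and Nr4a2 was lower (adjusted p = 4.9e-05) and without a UMI in 7 of 8 libraries. These 5 higher and 1 lower stand beside 19.1% and 25.7% of all genes. Of the 10 leading genes of this class 1 is a macrophage marker.

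The other endocrine classes held fewer calls. In Som-like cells Nr4a2 was higher by 0.83 ± 0.29 (edgeR adjusted p = 0.012), and Jun and Ier2 were lower by 1.17 and 0.79 on the log2 scale, that is 1 higher and 2 lower beside 35.7% and 12.3% of all genes. In Mult-like cells Nr4a1 (1.21 ± 0.35) and Nr4a2 (1.09 ± 0.31) were higher, beside 30.6% of all genes, and in Gona-like cells Jun (-1.40 ± 0.41) and Junb (-0.95 ± 0.38) were lower, beside 9.71%. In Sox2+-like cells Fos (-3.69 ± 0.84), Junb (-2.80 ± 0.61) and Fosb were lower, beside 7.26%, and in stromal-like cells 0 members were called by edgeR, with 3 at an unadjusted p under 0.05 and 1 called by DESeq2, beside 3.98% of genes higher and 2.02% lower. Jund, with 1 library of each sex and no test, was highest in MacPh-like and antigen-presenting cells, at 3.56 and 3.22 UMIs per 10000 in the female and 4.05 and 4.92 in the male 10X library, beside 2.48 and 1.92 in Mult-like, 0.375 to 0.933 in the other endocrine classes and 0.517 and 0.61 in the few red blood cells.

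**Figure D2:**
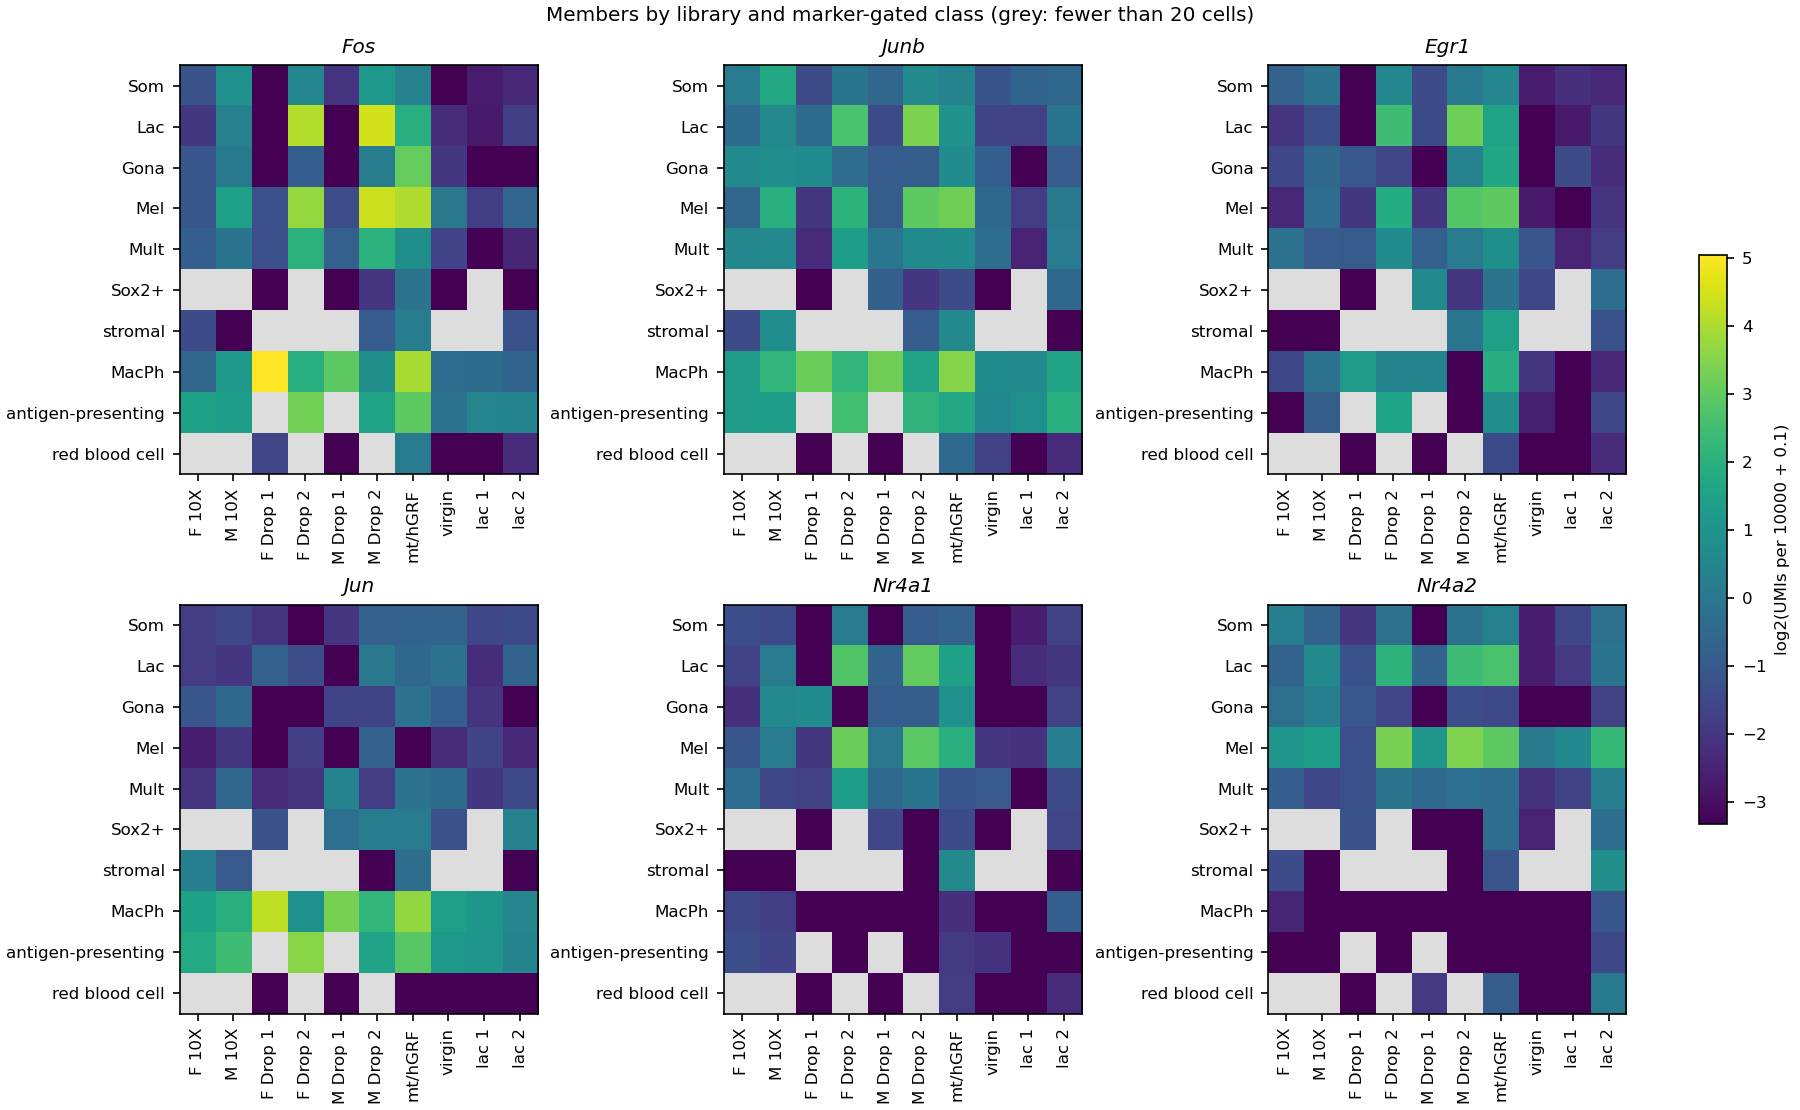
Level of 6 members, as log2 of UMIs per 10000 plus 0.1 (colour), for each class (rows) and library (columns); grey fields hold fewer than 20 cells. Lac-like and Mel-like rows are bright for Fos, Junb, Egr1, Nr4a1 and Nr4a2 in replicates 2, while Jun is brightest in the MacPh-like and antigen-presenting rows of most libraries and Nr4a2 is dark there.

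Because replicates 2 and 1 of the WT Drop-seq libraries differ in members while sex, age, strain and platform are the same in both, they were set against each other within each class, in a comparison chosen after seeing the data (edgeR over all 8 Drop-seq libraries). The question was which classes carry the difference. The libraries of each side share a title number, so the p-values do not measure the spread between such pairs of libraries. The comparison was chosen on the summed level of these same members, over cells that include the classes tested. Calls of members, their p-values and their number beside the share of all genes are therefore a description and no independent support.

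In Lac-like cells Fos had 667 UMIs in the replicates 2 and none in replicates 1. Its level was 16.7 and 22.3 UMIs per 10000 in female and male replicates 2, against 0 in both replicates 1, where 3 counts would be 0.498 and 0.797. This made it at least 63.8-fold higher, counting 3 UMIs over both replicates 1 (edgeR adjusted p = 6.5e-29). Egr1, with 248 UMIs against 1, had a ratio of 71.1 (95% counting interval 12.6 to 2820) and a fitted log2 difference of 6.06 ± 0.72 (adjusted p = 2.8e-13). Nr4a1 stood at 6.67 and 8.02 in replicates 2 against 0 and 0.531 (5.14 ± 0.64, adjusted p = 2.7e-12), and Junb at 6.31 and 10.4 against 0.664 and 0.266 (4.07 ± 0.53, adjusted p = 1.6e-11). Nr4a2 stood at 4.17 and 5.19 against 0.332 and 0.531 (3.53 ± 0.59, adjusted p = 1.9e-06). For these 5 genes both replicates 2 lay above both replicates 1. They are 5 of 8 members tested, beside 0.174% of all genes called higher.

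In Mel-like cells 6 of 9 members tested were higher in replicates 2, beside 0.185% of all genes. Fos stood at 13.0 and 20.8 UMIs per 10000 against 0.313 and 0.298, and differed by 6.04 ± 0.58 (edgeR adjusted p = 4.8e-11). Egr1 differed by 5.31 ± 0.69 (adjusted p = 7.8e-07), Junb by 4.53 ± 0.64, Nr4a1 by 4.24 ± 0.60 and Nr4a2 by 3.48 ± 0.52 (adjusted p = 1e-05). Fosb, with 65 UMIs against none, was at least 6.49-fold higher (adjusted p = 0.00088). Without the female replicate 1, 2 of these calls were left. In both classes, then, the same 5 genes (Fos, Egr1, Junb, Nr4a1 and Nr4a2) were called.

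In other endocrine classes the difference was smaller in level. In Som-like cells Fos stood at 1.37 and 2.08 against 0 and 0.144 (ratio 25.0, interval 4.31 to 1002, edgeR adjusted p = 0.01), the only call of 7 members, beside 0.0467% of genes. In Mult-like cells it stood at 4.03 and 3.96 against 0.312 and 0.497 (2.99 ± 0.58, adjusted p = 0.00041), the only call of 8, beside 0.0277%. All these Fos levels of replicates 2 lie below that of barcodes under the cell limit in the same libraries (4.26 and 5.28). Both calls were lost with DESeq2, that in Som-like cells also without the female replicate 1, the female replicate 2 or the male replicate 2, and that in Mult-like cells without the female replicate 1. In Gona-like cells edgeR called 0 of 5 members, with 1 at an unadjusted p under 0.05, beside 0.0441% of genes higher. Whether Lac-like or Mel-like cells differ more than Som-like cells was tested as an interaction of class and replicate, and for Fos it was not called in either (6.31 ± 3.03 and 1.68 ± 2.05, edgeR adjusted p = 1 in both, beside 0.0158% and 0.154% of genes called higher).

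MacPh-like cells went the other way. Fos stood at 33 and 7.59 UMIs per 10000 in female and male replicates 1 and at 3.69 and 1.71 in replicates 2. Jun stood at 19.1 and 9.94 against 1.72 and 4.44. Both genes were lower in replicates 2, Fos with a log2 difference of -3.02 ± 0.47 (edgeR adjusted p = 5.2e-07) and Jun with -2.47 ± 0.47 (adjusted p = 0.00016), and Fosb was lower at 2 against 28 UMIs (ratio 0.0983, interval 0.0113 to 0.390). These are 3 of 7 members tested, beside 0.304% of genes lower. With sex as a term 1 call was left, that of Fos. No call was left without the female replicate 1, the female replicate 2 or the male replicate 2, and DESeq2 called 1. The interaction placed the Fos difference of MacPh-like cells below that of Som-like cells by 7.10 on the log2 scale (SE 1.03, edgeR adjusted p = 2.4e-08, beside 0.024% of genes called lower), while DESeq2 called 0 members there and edgeR called 0 without the female replicate 1. The Fos term ranged from -10.72 (without the male replicate 1) to -5.29 (without the female replicate 1, edgeR adjusted p = 0.1).

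**Figure D3:**
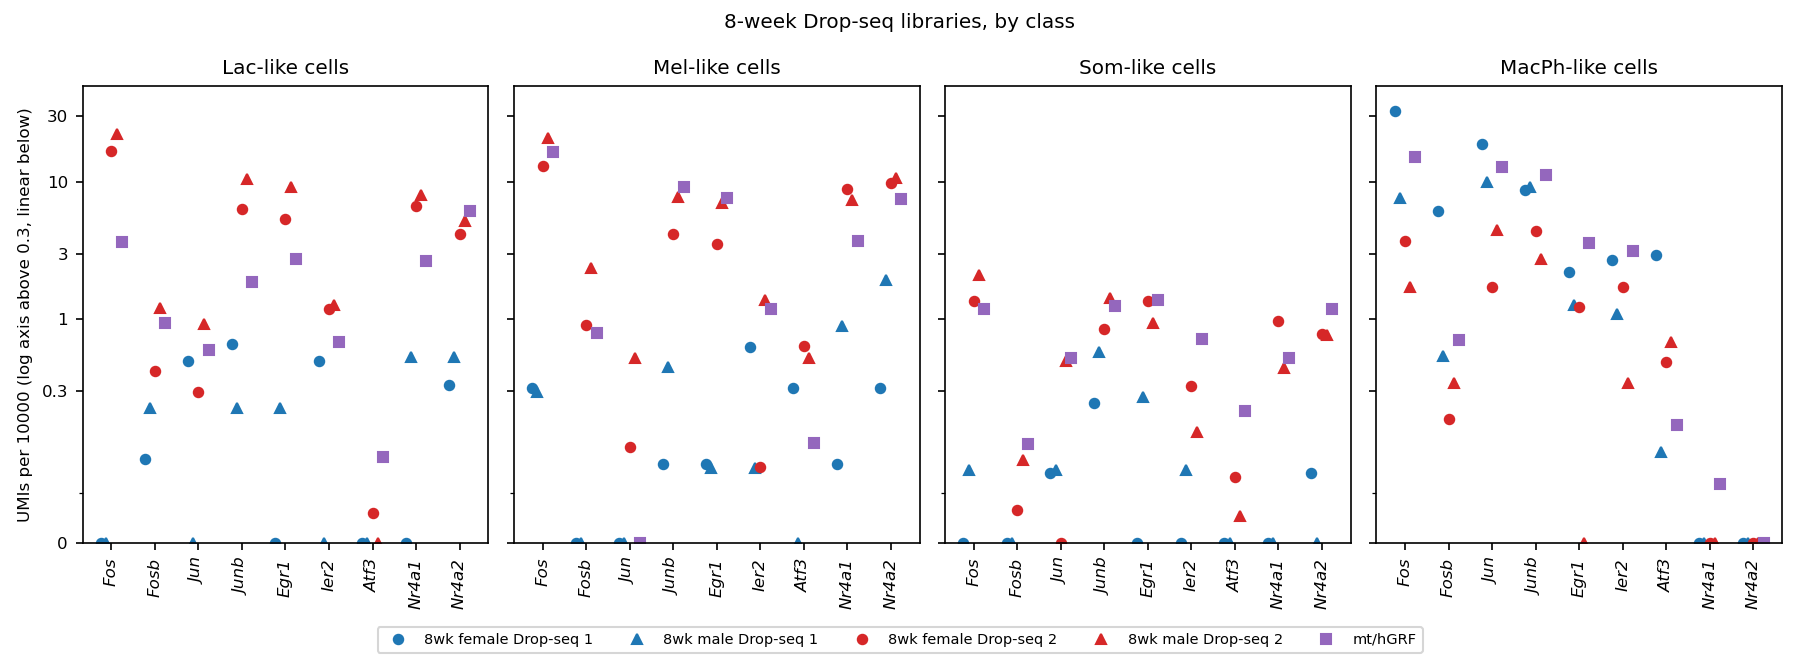
UMIs per 10000 of the 9 shared members (horizontal axis) in 4 classes, for the WT Drop-seq replicates 1 (blue) and 2 (red), female (circles) and male (triangles), and mt/hGRF (purple squares); the vertical axis is logarithmic above 0.3 and linear below. Red points lie above blue ones for Fos, Junb, Egr1, Nr4a1 and Nr4a2 in Lac-like and Mel-like cells, and below them for Fos, Jun and Junb in MacPh-like cells.

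The makeup of the member UMIs was read in the libraries where a class stood high, so classes are read in different libraries and a difference between them was not tested. Of all member UMIs in Lac-like cells, Fos gave 40.6% and 38.1% in female and male replicates 2, Nr4a1 16.2% and 13.7%, Junb 15.3% and 17.9%, Egr1 13.0% and 15.6% and Nr4a2 10.1% and 8.9%. In MacPh-like cells of female and male replicates 1, Fos gave 44.1% and 25.5%, Jun 25.5% and 33.3%, Junb 11.8% and 30.9%, and Nr4a1 and Nr4a2 none of 306 and 165 member UMIs. The share of Fos was thus as high in the female library as in Lac-like cells.

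Further lists of genes were followed beside the members, to see which other parts of a stress response moved. In Lac-like cells Dusp1, a phosphatase that switches off MAP kinases, was higher in replicates 2 by 5.84 ± 0.74 (edgeR adjusted p = 7e-12), and Btg2, an antiproliferative gene of the early response, by 4.62 ± 0.59 (adjusted p = 7e-12). In Mel-like cells Dusp1 was higher by 4.28 ± 0.59 and Btg2 by 3.12 ± 0.45 (adjusted p = 4.3e-06). Gadd45g, a gene of growth arrest, was lower in Lac-like cells (-2.88 ± 0.51, edgeR adjusted p = 1.5e-05). The lists that hold Dusp1, Btg2 and Gadd45g have further genes. How many of them were tested and called between replicates is not given here. Of heat shock and chaperone genes, 7 to 11 were tested in each of 6 classes and edgeR called 0 between replicates 2 and 1, with 0 to 4 at an unadjusted p under 0.05. Their summed level in Lac-like cells was 20.6 and 20.5 UMIs per 10000 in replicates 2 and 22.6 and 26.6 in replicates 1, within the range of the 10 libraries (15.8 to 30.4). No reference gene (Actb and other housekeeping genes) was called in any of the 6 classes. The mean mitochondrial share of kept cells was 1.96% and 1.89% in replicates 2, and 2.90% and 3.04% in replicates 1. In Lac-like cells it was 0.858% and 1.24% in replicates 2 against 1.33% and 1.99% in replicates 1, but in Mel-like cells it was higher in replicates 2, at 5.72% and 4.11% against 3.5% and 3.43%. Its part in the differences, like that of the dispersal, was not tested.

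Between classes, the lists stood as follows. In MacPh-like cells 8 of 10 feedback genes were higher and 0 lower, beside 26.2% and 30.8% of all genes, among them Dusp6 (4.98) and Zfp36 (4.12), an mRNA-destabilizing protein. In antigen-presenting cells 6 of 10 were higher, beside 19.1%. Of 12 heat shock and chaperone genes tested, 11 were higher in Mult-like cells, with Hspe1 at 1.71, Hspb1 at 1.52 and Hspd1 at 1.47, but so were 8 of 9 reference genes and 30.6% of all genes. In MacPh-like cells 6 of the 12 were higher and 1 lower, led by Hspa1a at 3.10, the inducible heat shock protein, beside the same 26.2% and 30.8%, and in Lac-like cells 1 was higher and 5 lower, beside 35.2% and 15%. Of 9 oxidative and metal stress genes 6 were higher in Mult-like cells, beside 30.6% of all genes, and 5 in Sox2+-like cells, beside 17.7%, where Mt2 (3.52) and Mt1 (2.28) encode metallothioneins.

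Levels per class do not show whether few or many cells carried the mRNA. Each cell was therefore thinned to 500 UMIs, and shallower cells were left out. In Lac-like cells Fos had a UMI in 40.3% of 139 cells of the female replicate 2 (95% exact Clopper-Pearson interval 32.1% to 48.9%) and in 50% of 150 cells of the male one (41.7% to 58.3%). Unthinned shares were 51.5% and 58.4%, and 30 and 35 cells were too shallow. In replicates 1 the share was 0 of 49 cells in the female (up to 7.25%) and 0 of 24 in the male library (up to 14.2%).

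In Mel-like cells Fos had a UMI in 51.0% of 104 cells (interval 41.0% to 60.9%) of the female and in 64.1% of 92 cells (53.5% to 73.9%) of the male replicate 2, and in 56.1% of 82 cells (44.7% to 67.0%) of mt/hGRF. Unthinned, these shares were 71.3%, 83.0% and 60.2%. The male 10X library gave 11.2% (6.26% to 18.1%) and the virgin library 5.81% (2.82% to 10.4%). Som-like cells gave 3.60% and 6.0% in replicates 2. In the mt/hGRF library Lac-like cells stood at 8.49% (3.96% to 15.5%), well below its Mel-like cells. Red blood cells, which should lack these mRNAs and so measure free RNA, gave 0 of 18 cells in the female replicate 2 (up to 18.5%), 1 of 12 in the male one (8.33%, interval 0.211% to 38.5%) and 2.86% of 70 cells in mt/hGRF (0.348% to 9.94%). Median depth there was 2538.5 and 2329 UMIs in replicates 2, against 825 and 724 in their Lac-like cells.

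MacPh-like cells with a Fos UMI made up 37.0% of 27 cells (interval 19.4% to 57.6%) in the female replicate 1, but 11.4% of 35 cells (3.20% to 26.7%) in the male one, and 34.7% of 72 cells (23.9% to 46.9%) in mt/hGRF. In the female and male replicates 2 the shares were 14.3% (3.05% to 36.3%) and 9.09% (1.12% to 29.2%), so the share of Fos in the male replicate 1 lay between them.

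Cells could hold several members together. In Lac-like cells of female and male replicates 2, 17.3% (24 of 139) and 33.3% (50 of 150) held UMIs of 3 or more of the 9 members, where independent detection would give 10.4% and 24%. In Mel-like cells 26.9% (28 of 104) and 33.7% (31 of 92) did, where 20.6% and 36.0% would be given. Only 9.78% of Mel-like cells of the male replicate 2 held no member. In MacPh-like cells 3 or more members were seen in 22.2% (6 of 27) of the female replicate 1 and 18.1% (13 of 72) of mt/hGRF, where 17.0% and 13.0% would be given. In the male replicate 1 they were seen in 1 of 35 MacPh-like cells, and in the female and male replicates 2 in 0 of 21 and 1 of 22. In Som-like cells they were seen in at most 1.67% of cells of any library.

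**Figure D4:**
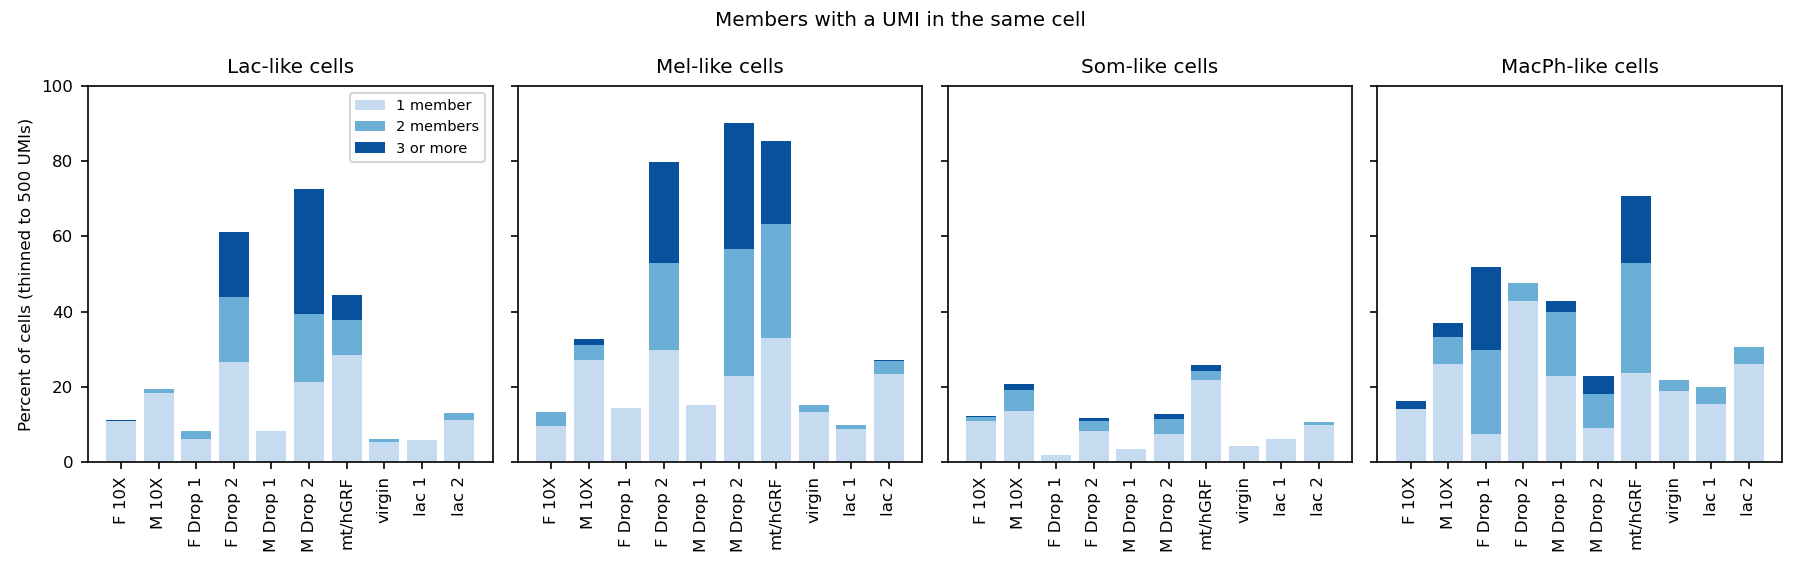
Percent of cells (vertical axis), each thinned to 500 UMIs, with UMIs of 1, 2 or at least 3 of the 9 members, by library (horizontal axis) and class (panels). In Lac-like cells the share with 3 or more is 17.3%, 33.3% and 6.60% in the female and male replicates 2 and mt/hGRF, and in Som-like cells it is at most 1.67% in any library.

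Pairs of members were compared with the number of cells expected if the members of the pair were detected independently. In Lac-like cells the median ratio was 1.79 over 15 member pairs in the female and 1.39 over 24 in the male replicate 2, against 1.03 and 1.08 for pairs of reference genes. It was 1.81 over 7 pairs in mt/hGRF, against 0.874. In the female replicate 2, Fos and Nr4a1 shared 23 of 139 Lac-like cells where 12.1 were expected, and Egr1 and Nr4a2 shared 11 where 4.32 were expected. In Mel-like cells the medians lay closer to those of reference pairs, at 1.24, 1.17 and 1.24 against 1.14, 1.21 and 1.03. In MacPh-like cells of the female replicate 1 all 12 pairs lay above 1, though they rest on 27 cells. Among Som-like cells of the male 10X library, Fos and Junb shared 25 of 539 cells where 4.94 were expected, a ratio of 5.07 that stands beside low shares of Fos (7.05%) and Junb (12.99%). Cells of 1 library share depth and free RNA, so these ratios are descriptions. No doublet caller was run. Without the 5% of cells with the most UMIs the medians were 1.83, 1.42 and 2.01 in Lac-like cells of female and male replicates 2 and mt/hGRF, 1.30, 1.17 and 1.31 in their Mel-like cells, 1.95 in MacPh-like cells of the female replicate 1 and 3.21 (3.22 with all cells) in Som-like cells of the male 10X library, and in MacPh-like cells of mt/hGRF the median went from 1.5 to 1.21.

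**Figure D5:**
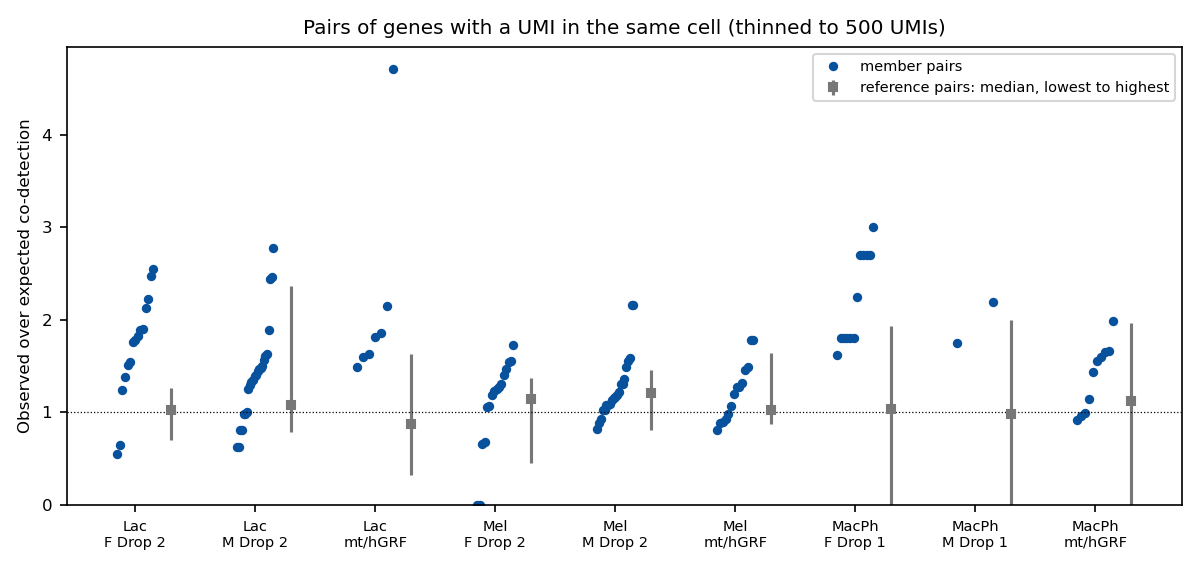
Ratio of observed to expected cells with both members (vertical axis) for each pair of members (points) in 9 library and class combinations (horizontal axis), beside the median and the lowest to highest value for pairs of reference genes (grey). The dotted line at 1 marks independent detection, and in Lac-like cells 13 of 15 pairs of the female replicate 2 and 17 of 24 of the male one lie above it.

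The comparison of the sexes asks whether male and female cells of 8 weeks differ in these genes over both platforms. In the edgeR test with platform as a term 0 members were called in any of 6 classes, beside 0.394% of all genes in Lac-like, 0.198% in Som-like, 0.131% in Mel-like, 0.464% in Gona-like, 0.344% in Mult-like and 0.0506% in MacPh-like cells. At an unadjusted p under 0.05 there were 5 of 8 members in Lac-like, 2 in Som-like, 2 in Mel-like, 2 in Mult-like and 0 in Gona-like and MacPh-like cells. Within Drop-seq, libraries of both sexes that share a title number deviated together weakly (correlation over genes 0.0516 to 0.258). With the pair as a block, Fos (1.72 ± 0.37, edgeR adjusted p = 0.01) and Junb (1.56 ± 0.32, adjusted p = 0.0062) were higher in males in Som-like cells, beside 0.152% of genes. Junb (1.40 ± 0.31, edgeR adjusted p = 0.024) was also higher in males in Mel-like cells, beside 0.16%. Without the female replicate 2, 4 members were called in Lac-like and 4 in Mel-like cells, and without the male replicate 1, 4 in Lac-like cells. The share of all genes called in these fits is not given here. In Som-like cells Fos stood at 0.341 in the female and 1.76 in the male 10X library, at 0 and 0.144 in replicates 1 and at 1.37 and 2.08 in replicates 2. Within the 10X pair the male over female ratio of Fos in Som-like cells was 5.18 (150 against 19 UMIs, interval 3.20 to 8.84), in Lac-like cells 7.36 (3.42 to 17.6) and in Mel-like cells 6.91 (3.70 to 14.0). Within replicates 2 the same ratios were 1.52 (0.873 to 2.73), 1.33 (1.14 to 1.56) and 1.60 (1.38 to 1.86), and in MacPh-like cells of replicates 1 it was 0.230 (0.159 to 0.328). In these 3 classes the male level of Fos was above the female one in these 2 pairs, though for Som-like cells of replicates 2 the interval includes 1. In Mel-like and Lac-like cells of replicates 1 it was not, with 0.313 (female) and 0.298 (male) in the first and 0 in both libraries in the second. Each pair has 1 library per sex. Outside cells Fos stood at 0.983 in the male and 0.311 in the female 10X library, the same direction as in Lac-like cells (1.17 and 0.159), and the part of free RNA in these ratios was not tested.

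The comparison of lactation with the virgin state at 13 weeks bears on the demand that milk production places on lactotropes, with 2 libraries against 1. Fos in Lac-like cells stood at 0.110 UMIs per 10000 in the virgin and at 0.0534 and 0.190 in the lactating libraries. Of the members, edgeR called 0 in any of 6 classes, beside 0.0463% of all genes in Lac-like, 0.0234% in Som-like, 0.0116% in Mel-like, 0.0221% in Gona-like, 0.0277% in Mult-like and 0.0935% in MacPh-like cells, with 4, 1, 1, 0, 2 and 1 members at an unadjusted p under 0.05 in these classes. Nr4a2 in Mel-like cells stood at 0.913 in the virgin and at 1.39 and 4.72 in the lactating libraries. The ratio of lactating to virgin was 3.63 (interval 2.25 to 6.23), and that of the second lactating library to the first was 3.40 (2.44 to 4.82), as large a step between libraries of 1 group. Its share of Mel-like cells went from 4.65% (2.03% to 8.96%) in the virgin to 7.14% (4.29% to 11.1%) and 18.1% (14.5% to 22.1%) in the lactating libraries.

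The comparison of mt/hGRF with WT females of 8 weeks asks what a constant drive by growth hormone-releasing factor does to the gland. Against both female Drop-seq libraries, edgeR called 1 member in 1 class, Fos in Gona-like cells, where it had 32 UMIs (8.20 per 10000), against none in the female replicate 1 and 2 UMIs (0.467 per 10000) in the female replicate 2. Its ratio to the female replicate 2 was 17.6 (interval 4.48 to 151), and it was at least 7.15-fold higher than in replicate 1 (4.84 ± 0.90, adjusted p = 0.0004, beside 0.0221% of genes). The fitted difference was 4.24 without the female replicate 1 and 8.71 without the female replicate 2, and the call was kept in both. DESeq2 called 0. With cells thinned to 500 UMIs, 75% of 40 Gona-like cells of mt/hGRF held none of the 9 members. The mt/hGRF group has 1 library, which is assumed to vary like the others, and the spread was again that of all 8 Drop-seq libraries.

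In Som-like cells, the target of the transgene product, Fos stood at 1.18 UMIs per 10000 in mt/hGRF, between the female replicates 1 (0) and 2 (1.37). It was below the 2.54 of barcodes under the cell limit in the same library, which can include shallow cells. In Som-like, Lac-like, Mel-like, Mult-like and MacPh-like cells 0 members were called, beside 0.105%, 0.0347%, 0.0347%, 0.346% and 0% of all genes. With 1 of the WT female libraries left out, the count of members changed in Lac-like, Mel-like and MacPh-like cells. The share of all genes called in those fits is not given here. Because the WT replicates differ from each other, mt/hGRF was also set against each pair of them. Against both replicates 1, 4 members were higher in Lac-like (beside 0.127% of genes) and 4 in Mel-like cells (0.104%). Against both replicates 2, Fos (-2.19, edgeR adjusted p = 0.00042) and Junb (-1.94, adjusted p = 0.017) were lower in Lac-like cells, beside 0.081%, and Fos (2.62, adjusted p = 0.00089) and Jun (2.30, adjusted p = 0.013) were higher in MacPh-like cells, beside 0.14%. In MacPh-like cells Fos stood at 15.3 in mt/hGRF, between the female and male replicates 1. With 1 library, the transgene and the library cannot be told apart.

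Over 95 sums of a library and a class, centred within class and platform, the genes whose level was most like the mean of the members were looked up among 1236 genes of at least 1 UMI per 10000. Dusp1 had the highest correlation (r = 0.901), followed by Btg2 (0.776), Rgs2 (0.654), a regulator of G protein signalling, Syne1 (0.559) and Sptbn1 (0.474), and the next 5 lay between 0.410 and 0.438. Of the members themselves, Fos (0.958), Egr1 (0.940) and Junb (0.893) followed the mean most closely and Jun (0.548) and Atf3 (0.499) least. The points share 10 libraries and their depth, so the values are a description. The points also include sums of the unnamed Mki67+ gate in 9 libraries and of 23 cells gated as T or NK cells in mt/hGRF, which entered no test.

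Free RNA was gauged from barcodes below the cell limit. In Drop-seq these are all barcodes under 300 UMIs, so shallow cells among them cannot be told from free RNA. Fos stood there at 4.26 and 5.28 UMIs per 10000 in female and male replicates 2 (126 and 158 UMIs) and at 2.54 in mt/hGRF (14 UMIs), against 0 to 0.983 in the other libraries. The 3 libraries that were high within cells were thus also the 3 highest in these barcodes, and how many UMIs of a class are free RNA was not tested. The level of Fos in Lac-like cells of replicates 2, 16.7 and 22.3, was above that of these barcodes, as it was in Mel-like cells (13.0 and 20.8). In Som-like, Gona-like, Mult-like and MacPh-like cells of replicates 2 it was below, which does not show whether Fos in these classes is free RNA. In mt/hGRF, Fos in Som-like (1.18) and Mult-like cells (1.72) was below the level of these barcodes as well. In Lac-like (3.67), Gona-like (8.20), MacPh-like (15.3) and Mel-like cells (16.5) of mt/hGRF it was above. These levels were set side by side without intervals or a test. The level of the barcodes of mt/hGRF rests on 14 UMIs, so small steps from it, as in Mult-like and Lac-like cells, may be counting error. The same holds for small steps in replicates 2.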

How the data were processed

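The authors deposited 1 table of UMI counts per library, with genes in rows and cell barcodes in columns. Per the labels and the methods, Drop-seq reads were aligned to mm10 with STAR 2.5.2a and counted over GENCODE exons, and 10X reads were processed with Cell Ranger (version not given in the sources used here). Drop-seq barcodes with at least 300 UMIs and 100 to 4000 genes, and 10X barcodes with more than 200 and fewer than 3000 genes, were kept at a mitochondrial share below 0.1. Cells were assigned to a class where UMIs of its markers exceeded a Poisson expectation from the cell's depth (p below 0.1, and a log10 margin of 0.5 over the next class). Som-like, Lac-like, Gona-like, Mel-like and Mult-like cells needed at least 2 marker UMIs, and the other classes UMIs of at least 2 different markers. The stricter gate asked for at least 2 different markers in every class. Cells above 25% globin were called red blood cells. UMIs were summed per library and class of at least 20 cells and the sums were compared two-sided by the quasi-likelihood test of edgeR 4.0.16 in R 4.3.3 (TMM, filterByExpr with a minimum count of 5, FDR 0.05 over all genes tested), with DESeq2 1.42.0 as the alternative. The SE given with edgeR is the absolute log2 difference divided by the square root of the F statistic of the test. It is thus approximate and not an SE that the model itself reports. Levels are UMIs of a gene per 10000 UMIs of the class. Shares and co-detection were computed in Python 3.11.15 with numpy 2.4.6, pandas 2.3.3 and scipy 1.17.1, from cells thinned at random to 500 UMIs. A level of 0 was bounded by 3 counts. 10X barcodes of at most 100 UMIs, and Drop-seq barcodes below the cell limit, served for free RNA. No doublet caller was run. The scripts were tested on simulated data.

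The members listed in a table (9 in each Drop-seq library, where Jund was not analysed, and 10 in each 10X library) are named by rule, genes of the further lists are counted and may be named where they passed the threshold, and of the 10 genes most like the members by correlation 5 are named and 5 given as a range. The members and lists were chosen with earlier results of these data known. Alternatives were a stricter gate (p below 0.01), no filter, sums without hormone genes, a mitochondrial share below 0.05, leaving out each library, and, chosen after seeing the data, the comparison of replicates 2 with 1 and the leaving out of libraries that stand apart. The deviations of the female and the male library of a pair from the means of their sex were correlated over genes. Over both platforms this gave 0.237 to 0.861 for every pair and class, which includes the platform difference that the sex model already fits. Within Drop-seq alone it was 0.0516 to 0.258, with the same value for both pairs of a class, since they mirror each other. The blocked values stand beside the sex comparison.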

Additional observations from a re-analysis of the deposited data

Results flagged for a closer look

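The Fos difference between WT Drop-seq replicates 2 and 1 was lower in MacPh-like than in Som-like cells by an interaction term of -7.10 ± 1.03 on the log2 scale (edgeR adjusted p = 2.4e-08), with the female and male replicates 2 at 1.37 and 2.08 UMIs per 10000 in Som-like and at 3.69 and 1.71 in MacPh-like cells, and replicates 1 at 0 and 0.144 and at 33 and 7.59. With 1 library left out it ranged from -10.72 to -5.29, and it was not called without the female replicate 1 (edgeR adjusted p = 0.1) or with DESeq2.

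Barcodes that entered no test between classes or libraries also held Fos. Below the cell limit it stood at 4.26, 5.28 and 2.54 UMIs per 10000 in the female and male replicates 2 and in mt/hGRF, above the 0.0417 and 0.125 of replicates 1. Among barcodes of cell size at or above the mitochondrial limit it stood at 10.8, 9.45 and 1.58, against 0.121 and 0.167 in replicates 1 and 1.59 in the male 10X library, as high as in mt/hGRF.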

How the results depend on the processing

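Across classes, members called in Lac-like cells (6) were 3 with DESeq2, 3 without both WT Drop-seq replicates 2 and 1 without these and mt/hGRF, and 3 to 7 when 1 library was left out, with 3 without the male replicate 2. In Mel-like cells (8) they were 5 and 4 without the same libraries, and 7 to 8 with 1 library left out. In Gona-like cells (2) 1 was called with DESeq2, 1 below a mitochondrial share of 0.05, 1 without replicates 2, 0 with the stricter gate and 1 to 2 with 1 library left out, with 1 without the female replicate 2, the male replicate 1 or 2, mt/hGRF or the second lactating library. In Mult-like cells (2) the stricter gate gave 1, and 4 were called without replicates 2 and mt/hGRF. In stromal-like cells (0) 1 was called with DESeq2, 3 without a filter, 1 with the stricter gate, 2 without replicates 1 and 0 to 1 with 1 library left out, with 1 without the female replicate 1 or the virgin library. In MacPh-like cells (8) the stricter gate gave 5, and 6 to 8 were called with 1 library left out, with 6 without the female replicate 1, where Fosb fell from 2.10 to 0.76 (range 0.76 to 2.64). Leaving out 1 library gave 2 to 4 in Som-like (3), 2 to 4 in Sox2+-like (3) and 6 to 7 in antigen-presenting cells (6). Fos in Sox2+-like cells ranged from -5.35 (without mt/hGRF) to -3.13 (without the male replicate 2). Without replicates 2, the log2 differences of Fos, Junb and Egr1 in Lac-like cells turned to -0.56, -0.49 and -0.59, and without mt/hGRF as well to -0.33, -0.47 and -0.83, with Egr1 at -0.13 in Mel-like cells. Of the class results for single members, 595 alternatives kept the call and direction, 75 lost the call and 7 turned. The share of all genes called is given in the results above for the main fits and for some alternatives. For the other alternatives, here and in the paragraphs that follow, it is not given. Their counts are therefore not read as a change in the members alone.

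Between the sexes, the replicate block gave 2 members in Som-like and 1 in Mel-like cells in place of 0 and changed no other call, and the stricter gate gave 1 in Som-like cells. Leaving out 1 library gave 0 to 4 in Lac-like cells, with 4 without the female replicate 2 or the male replicate 1, and 0 to 4 in Mel-like cells, with 4 without the female replicate 2. No paired analysis was possible because the virgin and mt/hGRF groups have 1 library each, for lactation and the transgene. For lactation every alternative that was run called 0. For the transgene, 0 to 4 were called in Lac-like, 0 to 5 in Mel-like and 0 to 1 in MacPh-like cells with 1 library left out (4 and 5 without the female replicate 2, and 1 without the female replicate 1), 4 in Lac-like and 4 in Mel-like cells against replicates 1, and 2 in Lac-like and 2 in MacPh-like cells against replicates 2. DESeq2 called 0 in Gona-like cells.

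Between replicates 2 and 1, Som-like cells (1) had 0 with DESeq2, 0 with the stricter gate and 0 to 1 with 1 library left out, Mult-like cells (1) 0 with DESeq2 and 0 to 1, Lac-like cells (5) 4 to 5, Mel-like cells (6) 2 to 6, and MacPh-like cells (3) 1 with DESeq2, 1 with sex as a term and 0 to 3. The lowest counts came without the female replicate 1 in all 5 classes, and in Som-like and MacPh-like cells also without the female or the male replicate 2. In Lac-like cells the log2 differences ranged from 4.90 to 9.70 for Egr1 and from 3.95 to 9.72 for Nr4a1, lowest without the female and highest without the male replicate 1. The interaction in MacPh-like cells (1) had 0 with DESeq2, 2 below a mitochondrial share of 0.05 and 0 to 1 with 1 library left out, with 0 without the female replicate 1. The stricter gate was not run in Lac-like, Gona-like or Mult-like cells here, nor between the sexes or for lactation and the transgene. It left 14, 13 and 14 of these cells in 1 library each, below the 20 needed.

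Thinning to 300 UMIs gave Fos shares of 30.2% and 38.9% in Lac-like and 35.6% and 51.9% in Mel-like cells of female and male replicates 2 and 34.0% in Mel-like cells of mt/hGRF, and no thinning gave 51.5%, 58.4%, 71.3% and 83.0% in replicates 2. Median co-detection at 300 UMIs was 2.72 in Lac-like cells of mt/hGRF, 0.961 in Mel-like cells of the female replicate 2 and 1.33 in those of mt/hGRF, and without the 5% of cells with the most UMIs it was 1.30 and 1.31 in the last 2. The causes were not tested. Depth limits the low levels: at 500 UMIs per cell a gene at 1 UMI per 10000 is seen in few cells.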

Other observations

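Of other early response genes than the members, edgeR called 6 of 14 tested higher and 4 lower in Mel-like cells, beside 32.5% and 13.1% of all genes. Whether the list differs from all genes in this was not tested, and its counts in the other classes are not given here. The higher ones were Gadd45b (2.72 ± 0.31, log2 difference ± SE) and Gadd45a (1.58 ± 0.25), genes of growth arrest, Sik1 (2.56 ± 0.38), a kinase known to be induced by cAMP, the clock gene Per1 (1.37 ± 0.26), Crem (1.26 ± 0.20), whose ICER transcripts repress cAMP-responsive genes, and Fosl2 (0.82 ± 0.30). The lower ones were the Krüppel-like factors Klf2 (-3.30 ± 0.69), Klf6 (-1.89 ± 0.27) and Klf10 (-1.22 ± 0.42), and Gadd45g (-0.73 ± 0.29).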
